A study of Mus musculus with 24 samples.

Results

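Solute carriers are membrane proteins that move small molecules across the plasma membrane and across the membranes of mitochondria, lysosomes and the Golgi, and their gene symbols (Slc, a family number, the letter a and a member number) group them by protein family. A pre-adipocyte that is turning into a fat cell needs them for glucose and amino acids, for the vitamins that serve as cofactors of fat synthesis, and for the exchange of citrate, malate, phosphate and adenine nucleotides across the inner mitochondrial membrane, through which acetyl units for fatty acids leave the organelle. Carriers of iron, zinc and copper and the exporters of the lysosome belong to the same superfamily. The 133 loci described here are the rows of the RNA-Seq table whose symbol follows that pattern, less 11 symbols left out by name, and they make up 133 of the 9262 loci in the table. A symbol at 139 rows matched, of which 6 were among those left out. All 133 passed the filter on low values, so none was dropped, and they were sorted by family into substrate classes, with 32 mitochondrial carriers, 22 metal transporters and 19 amino acid transporters as the largest.

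The RNA came from 3T3-L1, a line of mouse pre-adipocytes, whose cells had been transfected with siRNA against 14-3-3ζ (si14-3-3ζ) or with control siRNA (siCon), in 6 groups of 4 libraries: both siRNAs at 0 h, 24 h and 48 h of adipogenic induction. Induction began 24 h after transfection, with insulin, IBMX (a phosphodiesterase inhibitor) and dexamethasone (a glucocorticoid) in medium with fetal bovine serum, and the 0 h cells had been transfected but not induced. The model is a single cell line with transient knockdown. The 6 groups hold no uninduced cells at 24 h or 48 h, so induction and time in culture cannot be told apart in comparisons with 0 h. Nothing in the labels says whether replicates came from separate cultures, and if they did not, the p-values rest on technical spread alone. Ywhaz, the gene of 14-3-3ζ, was 5.6-fold lower in si14-3-3ζ cells at 0 h, 6.00-fold at 24 h and 6.56-fold at 48 h.

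The values are FPKM, fragments scaled to transcript length and library size, which put genes of different length on the same scale. The files give no read counts, so the depth behind a value is unknown. FPKM summed to between 474548 and 642146 per library over the table. Of the markers listed, the table held 6 of 8 for pre-adipocytes (among them Dlk1 and Pdgfra), 8 of 9 for adipocytes, 1 of 5 for macrophages (Cd14) and none of 4 for endothelium or of 4 for epithelium. The siCon libraries were not alike. Replicates 1 and 3 at 48 h held 2790 and 3701 FPKM of Fabp4, the fatty acid binding protein of fat cells, and replicates 2 and 4 held 941 and 1259. The same pairs separated at 24 h (294 and 312 in replicates 1 and 3, 89.6 and 115 in replicates 2 and 4) and at 0 h (422 and 464, against 281 and 239). In si14-3-3ζ libraries 46 of the 133 members at 0 h, 37 at 24 h and 29 at 48 h had both replicates 1 and 3 above both 2 and 4 (19.4%, 18.7% and 23.2% of all loci), and 27, 18 and 44 had them below (24.1%, 26.4% and 25.8%). In siCon libraries 42, 58 and 53 had them above at these times (23%, 22% and 26% of all loci), and 24, 17 and 33 below (25.6%, 30% and 28.2%). What the numbers mark was not tested. Fold changes are on the log2(FPKM + 1) scale with their standard error, which understates the change of weakly expressed genes, and adjusted p-values come from limma with Benjamini-Hochberg adjustment over 9251 tested loci. A locus was called at an adjusted p under 0.05. In these bulk samples fewer cells of a type and less RNA per cell cannot be told apart.

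Members differed widely in level. The mean over the 24 libraries ran from 0.626 to 365 FPKM with a median of 11.4, with 6 members over 100 FPKM, 67 between 10 and 100 and 60 under 10. The highest was Slc25a5, the ADP/ATP exchanger of the inner mitochondrial membrane. Slc29a1, which carries nucleosides across the plasma membrane, was the highest member outside the mitochondrial class at a row of 1 symbol, with 144 FPKM. Summed over all members the 4 libraries averaged 3467 FPKM in si14-3-3ζ against 4076 in siCon cells at 48 h. The mitochondrial carriers accounted for 1117 ± 68.8 of this in si14-3-3ζ against 1680 ± 231 in siCon cells (SD, n = 4 each). Abundant loci such as Slc25a5 weigh most in that sum. The median carrier had a mean of 9.32 FPKM in si14-3-3ζ against 12.5 in siCon cells at 48 h.

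Upstream sequences are shown for 4 genes, chosen as members whose values carry the results below: 2 that rose in siCon cells at 48 h and not in si14-3-3ζ cells, and 2 lysosomal amino acid exporters that were lower after induction in both. Each holds the 250 bases before the gene start in RefSeq (build GRCm38.p6), with capitals marking matches to motifs that were searched on both strands. The search covered the helix-loop-helix motif TCACGTG, the GC box GGGCGG, the CCAAT box, the C/EBP element TTGCGCAA, the sterol regulatory element TCACNCCAC and, by name, the DR1 element of PPARγ and the NRF1 motif. For Slc5a6 the first of the RefSeq starts is shown. Other members, among them Slc1a3 and Slc19a1, also rose in siCon cells at 48 h and not in si14-3-3ζ cells, and are not shown.
Slc5a6 (chr5:31048563-31048812, minus strand): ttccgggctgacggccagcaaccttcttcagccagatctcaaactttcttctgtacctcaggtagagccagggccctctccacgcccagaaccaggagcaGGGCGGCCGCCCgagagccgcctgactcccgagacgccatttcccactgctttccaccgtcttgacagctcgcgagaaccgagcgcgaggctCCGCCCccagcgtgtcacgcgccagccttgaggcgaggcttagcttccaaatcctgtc
Slc25a10 (chr11:120491587-120491836, plus strand): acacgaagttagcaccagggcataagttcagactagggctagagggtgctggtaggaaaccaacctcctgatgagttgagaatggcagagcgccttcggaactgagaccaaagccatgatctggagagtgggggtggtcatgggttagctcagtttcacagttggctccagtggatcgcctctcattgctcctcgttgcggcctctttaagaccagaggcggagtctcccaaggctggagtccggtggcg
Slc38a7 (chr8:95853492-95853741, minus strand): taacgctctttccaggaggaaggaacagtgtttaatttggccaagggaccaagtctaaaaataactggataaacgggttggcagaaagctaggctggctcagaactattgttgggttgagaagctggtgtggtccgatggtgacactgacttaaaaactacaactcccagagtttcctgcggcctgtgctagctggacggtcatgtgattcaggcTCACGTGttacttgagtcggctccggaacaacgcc
Slc36a1 (chr11:55204090-55204339, plus strand): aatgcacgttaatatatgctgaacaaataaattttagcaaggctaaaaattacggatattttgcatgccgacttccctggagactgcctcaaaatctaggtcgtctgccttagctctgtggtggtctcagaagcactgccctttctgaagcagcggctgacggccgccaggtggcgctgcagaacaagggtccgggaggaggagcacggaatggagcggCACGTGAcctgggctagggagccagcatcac
Slc38a7 and Slc36a1 each held 1 match to TCACGTG (read on the other strand in Slc36a1, where it appears as CACGTGA), a sequence bound by basic helix-loop-helix factors, among them those that act on lysosomal genes. That motif stood in 12 of 139 member promoters (8.63%) and in 3.13% of 32851 promoters. Of the 9 members of lysosomes or endosomes grouped further on, no others were among the genes with this motif. Most genes with it, Slc16a1 and Slc20a1 among them, lie outside that group. The Slc5a6 window held GGGCGG alone, with 3 matches of which the first adjoins another read on the other strand (CCGCCC). The window of the second Slc5a6 start (chr5:31048080-31048329), not shown, held CCAAT beside GGGCGG, with 5 matches. GGGCGG was in 65.5% of member and 32.7% of all promoters, and the Slc25a10 window held no match. The CCAAT box was in 50 of the 139 member promoters and in 33.8% of all, and TCACNCCAC was in 2.88% of member and 1.05% of all promoters. TTGCGCAA and the DR1 element were in 0 of the 139 member promoters (0.164% and 0.0335% of all), and the NRF1 motif was in 1 (0.782% of all). A match is a description of the letters and says nothing of binding. Of the 123 members at rows of 1 symbol, 100 had a promoter in the table. Every member passed the filter on low values, whereas the 32851 promoters were not limited to loci measured here. The 2 sets are therefore unlike, and their shares do not show a trait of transporters.

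The central comparison asks which transporters differed with 14-3-3ζ knockdown once induction was under way. At 48 h 34 of 133 members were higher and 30 lower in si14-3-3ζ than in siCon cells, beside 23.3% and 22.8% of all tested loci, so the share called was close to the background. The median member log2 fold change was 0.00 and that of all loci 0.01. What differed was the direction by class. Of the 32 mitochondrial carriers 13 were lower and 1 was higher, with a median of −0.21, whereas of the 19 amino acid transporters 11 were higher and 2 lower, with a median of 0.32. The difference between the classes was not itself tested. Many of the symbols left out by name are of amino acid transport, so the counts of that class do not cover all amino acid transporters. Libraries numbered 1 and 3 alone gave 27 higher and 27 lower, and those numbered 2 and 4 gave 27 and 24.

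**Figure D1:**
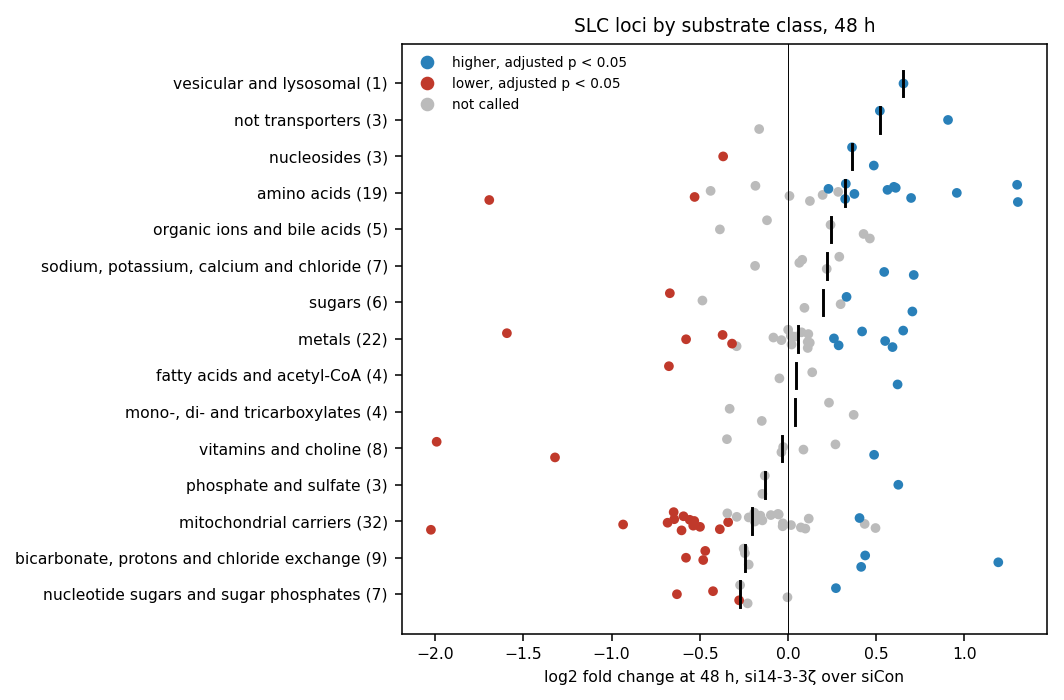
Log2 fold change at 48 h, si14-3-3ζ over siCon, for the 133 members, with 1 point per locus, rows for substrate classes (number of members in parentheses) ordered by their median, and a black bar for the median. Most called mitochondrial carriers lie left of 0 (13 lower, 1 higher) and most called amino acid transporters right of it (11 higher, 2 lower).

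Of the 5 members with the largest falls at 48 h, 4 had risen in siCon cells over the 48 h of induction. The other was the iron exporter Slc40a1, described further on. Both comparisons use the siCon libraries of 48 h, so they are not independent. Slc5a6, the sodium-dependent transporter of biotin, pantothenate and lipoate (NCBIM37, chromosome 5, 31338409 to 31351297), had 4.82, 15.6, 7.31 and 13.1 FPKM in the si14-3-3ζ libraries and 47.7, 26.8, 53.4 and 37.4 in the siCon libraries at 48 h. The groups did not overlap, and the log2 fold change was −1.99 ± 0.25 (limma adjusted p = 2.2e-06). At 24 h the means were still 6.69 ± 1.18 in si14-3-3ζ against 5.72 ± 1.58 in siCon cells, and at 0 h they were 9.74 ± 1.56 in si14-3-3ζ against 8.58 ± 0.298 in siCon cells (SD, n = 4 each). In si14-3-3ζ cells the change from 0 h was −0.05 ± 0.25 at 48 h (adjusted p = 0.883). In siCon cells 48 h exceeded 0 h by 2.10 ± 0.25 on the log2 scale, while at 24 h no rise was called (−0.54 ± 0.25, adjusted p = 0.0626). The response itself differed by −2.15 ± 0.36 (adjusted p = 0.000316), beside 9.24% of all loci with a lower response. The gene 0610007C21Rik lies on the opposite strand over part of Slc5a6, and the library kit does not mark strand, so their reads cannot be told apart where they overlap.

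Slc25a10, the mitochondrial dicarboxylate carrier that exchanges malate and succinate for phosphate (chromosome 11, 120353154 to 120360501), had 23.9, 36.2, 26.6 and 40.6 FPKM in si14-3-3ζ and 193, 75.3, 188 and 103 in siCon libraries at 48 h. Every siCon library was above every si14-3-3ζ library (log2 fold change −2.02 ± 0.23, adjusted p = 6.69e-07). In si14-3-3ζ cells it was higher at 24 h than at 0 h (0.67 ± 0.23, adjusted p = 0.0161), and no change from 0 h was called at 48 h (0.22 ± 0.23, adjusted p = 0.428). In siCon cells it already stood at 63.3 ± 11.5 at 24 h, higher than the 36.6 ± 8.48 at 0 h by 0.78 ± 0.23, and it was higher by 1.82 ± 0.23 at 48 h. The 48 h response differed by −1.60 ± 0.33 (adjusted p = 0.00201).

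Slc1a3, a glutamate and aspartate transporter (chromosome 15, 8584124 to 8660764), had 1.28, 2.59, 1.47 and 3.79 FPKM in si14-3-3ζ and 11.6, 5.23, 13.8 and 8.10 in siCon libraries at 48 h. It was weakly expressed in every other group, with means between 1.60 and 2.28 FPKM, and its siCon level at 48 h was the only group mean above that range. The fold change was −1.69 ± 0.28 (adjusted p = 5.77e-05) and the response differed by −1.40 ± 0.40 (adjusted p = 0.0196). Without siCon replicate 3 at 48 h the response difference was −1.22 with an adjusted p of 0.0509, above the threshold.

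Slc19a1, the reduced folate carrier (chromosome 10, 76494986 to 76523747), had 10.8, 10.2, 9.70 and 11.9 FPKM in si14-3-3ζ and 39.8, 20.5, 36.3 and 20.6 in siCon libraries at 48 h, again without overlap (−1.32 ± 0.18, adjusted p = 6.11e-06). Its induction started on the first day in both: it was higher at 24 h than at 0 h by 0.76 ± 0.18 in si14-3-3ζ against 1.05 ± 0.18 in siCon cells. At 48 h the change from 0 h was 0.30 ± 0.18 (adjusted p = 0.157) in si14-3-3ζ against 1.44 ± 0.18 in siCon cells, a difference of −1.14 ± 0.26 (adjusted p = 0.0042). Col18a1 overlaps Slc19a1 on the opposite strand and was also lower at 48 h, at 57.4 ± 8.23 FPKM in si14-3-3ζ against 95.9 ± 12.0 in siCon cells, and its part in the Slc19a1 value was not tested.

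**Figure D2:**
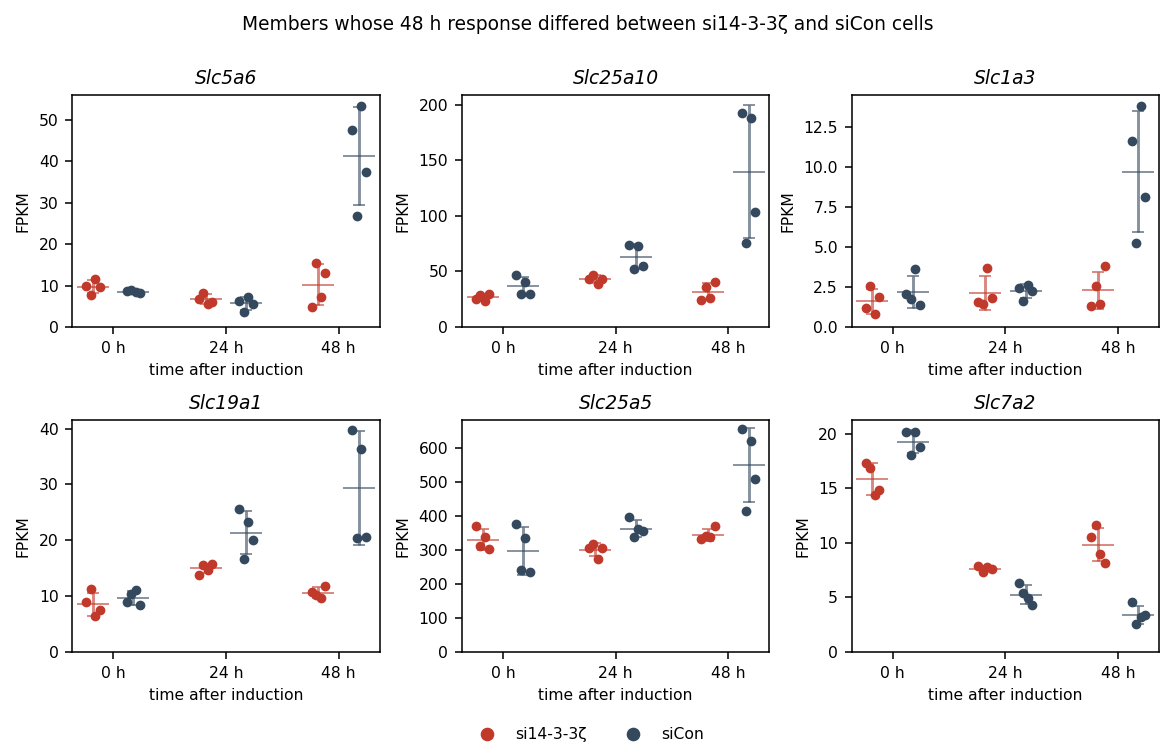
FPKM (linear axis from 0) of 6 members at 0, 24 and 48 h, si14-3-3ζ left of siCon at each time, with 1 point per library and bars for the mean and SD (n = 4). Slc5a6, Slc25a10, Slc1a3, Slc19a1 and Slc25a5 are high in siCon libraries at 48 h alone or most, and Slc7a2 is lower in siCon than in si14-3-3ζ libraries at 24 and 48 h.

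The siCon libraries with most Fabp4, replicates 1 and 3, were also those with most of all 4 transporters at 48 h. Among libraries 1 and 3 the log2 ratio of the mean in si14-3-3ζ to that in siCon at 48 h was −2.87 for Slc5a6, −2.87 for Slc25a10, −2.53 for Slc1a3 and −1.80 for Slc19a1. Among libraries 2 and 4 it was −1.11, −1.19, −0.87 and −0.84 for these genes in the same order, a smaller amount for each. This split was chosen after seeing the data. The genes were named because their si14-3-3ζ and siCon libraries did not overlap at 48 h, so a lower value in both sets was fixed in advance. All 8 adipocyte markers measured were called lower with knockdown at 48 h, 4 of them at 24 h and 1 at 0 h. Their summed level at 0 h was 623 to 741 FPKM in si14-3-3ζ against 1558 to 1833 in siCon libraries. Most of that gap was Lpl, at 333 ± 67.6 in si14-3-3ζ against 1212 ± 144 in siCon cells. Fabp4 averaged 286 against 352, Pparg 49.5 against 49.8 and Cebpa 4.08 against 3.80. The median log2 fold change of the 8 markers at 0 h was −0.11. At 24 h their sum was 196 to 311 in si14-3-3ζ against 453 to 813 in siCon libraries. At 48 h it was 247 to 582 in si14-3-3ζ against 1544 to 4952 in siCon libraries. The summed level of the 6 pre-adipocyte markers was lower as well, at 1925 to 2806 FPKM in si14-3-3ζ against 3440 to 4361 in siCon libraries at 0 h. It was 1468 to 1832 in si14-3-3ζ against 3004 to 3241 in siCon libraries at 24 h, and 1384 to 1745 in si14-3-3ζ against 2341 to 3137 in siCon libraries at 48 h. Of these 6, 2 were called lower at 0 h, 5 at 24 h and 3 at 48 h, where 2 were called higher. No marker of either list was at 0 in a library, and their part in the transporter values was not tested. Ywhaz itself was higher in si14-3-3ζ replicates 2 and 4 (40.3 and 55.5 FPKM at 48 h) than in replicates 1 and 3 (28.7 and 33.8), and Slc5a6, Slc25a10 and Slc1a3 were higher in the same 2 libraries.

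Mitochondrial carriers shuttle metabolites, nucleotides and cofactors across the inner membrane. At 48 h 18 of the 32 were not called. Beside Slc25a10, the 12 other members that were lower in si14-3-3ζ cells at 48 h ranged from −0.34 for Slc25a28, an iron carrier, to −0.93 for Slc25a22, a glutamate carrier. Slc25a5 had 331, 343, 338 and 371 FPKM in si14-3-3ζ and 656, 416, 622 and 508 in siCon libraries (−0.65 ± 0.14, adjusted p = 0.000543). It has near-identical relatives and processed pseudogenes among which reads may have been split, so its level is uncertain. Slc25a3, the phosphate carrier that supplies the ATP synthase, averaged 265 FPKM in si14-3-3ζ against 383 in siCon cells (−0.53). Slc25a1, which exports citrate for fatty acid synthesis, had 51.6, 64.4, 61.2 and 65.3 FPKM in si14-3-3ζ and 91.3, 87.1, 97.7 and 93.0 in siCon libraries (−0.60 ± 0.08, adjusted p = 7.93e-06). Slc25a39 and Slc25a32, carriers of glutathione and of folate, were lower by 0.59 and 0.56 on the log2 scale. Slc25a36, a pyrimidine nucleotide carrier, was the only one of the 32 called higher, at the edge of the threshold (0.41, adjusted p = 0.0499).

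The citrate carrier followed a different time course from the dicarboxylate carrier. In si14-3-3ζ cells Slc25a1 averaged 85.8 ± 3.08 FPKM at 0 h, 48.4 ± 2.03 at 24 h and 60.6 ± 6.28 at 48 h, and was lower than at 0 h at 24 h (−0.81 ± 0.08) and still at 48 h (−0.50 ± 0.08, adjusted p = 3.36e-05). In siCon cells it averaged 99.5 ± 12.8, 63.4 ± 4.41 and 92.3 ± 4.41 FPKM at the 3 times, was lower at 24 h (−0.64 ± 0.08, adjusted p = 8.68e-07) and had no called change from 0 h at 48 h (−0.10 ± 0.08, adjusted p = 0.298). The responses differed by −0.40 ± 0.12 at 48 h (adjusted p = 0.0246), a call lost without si14-3-3ζ replicate 1 (−0.33, adjusted p = 0.0525) or without siCon replicate 3 (−0.37, adjusted p = 0.0532) of that time.

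**Figure D3:**
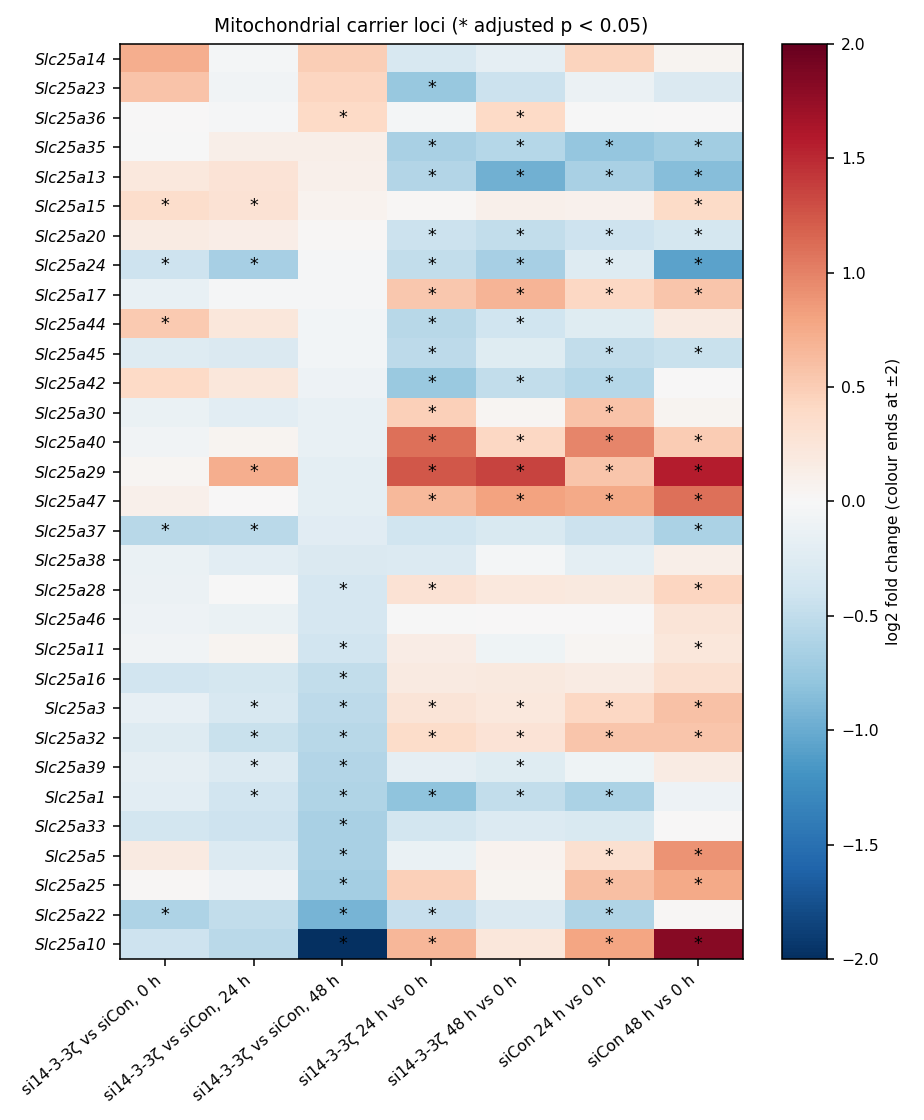
Log2 fold changes of 31 of the 32 mitochondrial carrier loci (rows, ordered by the 48 h difference) in the 3 comparisons of si14-3-3ζ with siCon and the 4 comparisons of a later time with 0 h (columns, si14-3-3ζ before siCon), with a star where the adjusted p is under 0.05. The lower rows are blue in the 48 h column, 12 of them starred, and most of these are paler at 0 and 24 h.

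At 0 h 2 of the 32 carriers were higher (Slc25a15 and Slc25a44, carriers of ornithine and of branched-chain amino acids) and 3 lower (Slc25a22, Slc25a24 and Slc25a37), beside 8.1% and 9.16% of all loci. The Slc25a44 call was lost without si14-3-3ζ replicate 3 of 0 h (0.47, adjusted p = 0.0598), and that of Slc25a22 without si14-3-3ζ replicate 1 or 2 or siCon replicate 4 of 0 h (adjusted p 0.0641 to 0.0787). At 24 h 3 were higher and 6 lower, beside 14.5% and 14% of all loci. Slc25a24, the ATP-Mg and phosphate exchanger, had 19.2, 17.2, 15.5 and 18.2 FPKM in si14-3-3ζ and 31.8, 29.05, 25.1 and 27.2 in siCon libraries at 24 h (−0.66 ± 0.11, adjusted p = 0.000157), and at 48 h it was at 15.5 ± 1.93 in si14-3-3ζ against 15.9 ± 2.73 in siCon cells. Slc25a29, a carrier of basic amino acids, was the member with the largest rise in the class at 24 h, with 11.8, 8.89, 10.1 and 7.66 FPKM in si14-3-3ζ and 5.70, 4.75, 5.34 and 5.73 in siCon libraries (0.72 ± 0.14, adjusted p = 0.000692). It had risen in both kinds of cell by 48 h, by 1.35 ± 0.14 in si14-3-3ζ against 1.58 ± 0.14 in siCon cells. Slc25a20, which brings acylcarnitines in for oxidation, was lower after induction in both (−0.49 ± 0.12 in si14-3-3ζ against −0.35 ± 0.12 in siCon cells at 48 h). It was not called with knockdown at any time. Slc25a40, a relative of Slc25a39, rose at 24 h by 1.10 ± 0.17 in si14-3-3ζ against 0.97 ± 0.17 in siCon cells and was not called with knockdown at any time.

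Amino acid and peptide transporters, less those left out by name, were the class with most members higher after knockdown. Slc7a2, a carrier of arginine and other basic amino acids (chromosome 8, 41947750 to 42007662), had 10.6, 11.6, 9.02 and 8.16 FPKM in si14-3-3ζ and 4.55, 2.58, 3.19 and 3.39 in siCon libraries at 48 h (1.30 ± 0.12, adjusted p = 5.48e-08). Before induction it had been at 15.8 ± 1.47 in si14-3-3ζ against 19.3 ± 1.06 in siCon cells, a difference not called (adjusted p = 0.135). It fell in both, by 0.64 on the log2 scale in si14-3-3ζ against 2.21 in siCon cells at 48 h, and the response differed by 1.57 ± 0.17 (adjusted p = 5.8e-06), beside 8.69% of loci with a higher response. Slc15a2, a proton-coupled peptide transporter, had 7.18, 7.43, 12.9 and 7.16 FPKM in si14-3-3ζ and 1.61, 3.90, 2.30 and 3.98 in siCon libraries at 48 h (1.30 ± 0.24, adjusted p = 0.000127). Its response difference (0.98 ± 0.33, adjusted p = 0.0442) stood near the threshold and was lost without any 1 of 12 libraries (adjusted p 0.0502 to 0.102), among them si14-3-3ζ replicate 3 at 48 h (0.79, adjusted p = 0.102).

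Slc38a7, a lysosomal glutamine exporter (chromosome 8, 98359820 to 98377439), was higher in si14-3-3ζ cells at all 3 times, as was Slc7a6, an exchanger of basic and neutral amino acids. Slc38a7 had 62.0, 49.02, 61.7 and 52.4 FPKM in si14-3-3ζ and 40.8, 37.4, 42.2 and 40.8 in siCon libraries at 0 h. At 24 h it had 18.5, 14.9, 18.6 and 14.1 in si14-3-3ζ and 11.3, 7.55, 10.4 and 7.56 in siCon libraries, and at 48 h 26.5, 25.9, 21.0 and 21.7 in si14-3-3ζ and 13.3, 10.6, 11.9 and 11.2 in siCon libraries. The groups did not overlap at any time, and the fold changes were 0.47 ± 0.12, 0.79 ± 0.12 and 0.96 ± 0.12 (adjusted p = 0.012, 6.4e-05 and 2.87e-06). Within that, it was much lower after induction, by 1.71 on the log2 scale in si14-3-3ζ against 2.03 in siCon cells at 24 h. Slc36a1, a lysosomal exporter of small neutral amino acids, showed 8.43, 9.92, 7.35 and 9.22 FPKM in si14-3-3ζ and 5.28, 4.14, 6.47 and 4.25 in siCon libraries at 48 h (0.70 ± 0.16, adjusted p = 0.00131), with no difference called at 0 h (0.10 ± 0.16, adjusted p = 0.727). Slc36a4, its relative with high affinity for proline and tryptophan, went the other way, at 3.59 ± 0.428 in si14-3-3ζ against 7.49 ± 1.246 in siCon cells at 24 h (−0.88 ± 0.14, adjusted p = 5.13e-05).

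Slc38a4, a sodium-coupled transporter of neutral amino acids, was higher with knockdown only before induction among the 3 times: 35.4, 30.05, 36.8 and 28.9 FPKM in si14-3-3ζ and 22.0, 18.3, 22.5 and 21.0 in siCon libraries at 0 h (0.62 ± 0.13, adjusted p = 0.00275). After 24 h both were low, at 6.22 ± 1.07 in si14-3-3ζ against 6.98 ± 0.426 in siCon cells. The 24 h response differed by −0.77 ± 0.19 (adjusted p = 0.0373), the only member with a lower response at 24 h, where 0.789% of loci were lower and 0.638% higher. That call was lost without any 1 of 9 libraries (adjusted p 0.0599 to 0.0955). The response at 24 h was higher for 3 members, Slc7a2, Slc30a4 and Slc9a3r1. The Slc7a2 call was lost without any 1 of 10 libraries (adjusted p 0.0503 to 0.0724). Slc43a3, which sits in a family of amino acid transporters and carries purine nucleobases, had the highest level of the class (76.9 FPKM over all libraries). At 48 h it was called higher in si14-3-3ζ cells, a call lost without any 1 of 13 libraries (adjusted p 0.0507 to 0.166). It was higher at 0 h in si14-3-3ζ cells (57.2 ± 5.76, against 43.4 ± 1.59 in siCon cells; 0.39 ± 0.09, adjusted p = 0.00606) and rose by 24 h in both, by 0.88 ± 0.09 in si14-3-3ζ against 1.03 ± 0.09 in siCon cells.

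Before induction 6 members were higher and 15 lower in si14-3-3ζ cells, beside 8.1% and 9.16% of all loci. At 24 h 13 were higher and 24 lower, beside 14.5% and 14%. Without siCon replicate 3 at 24 h the count of lower members was 14. Of the 6 members higher at 0 h, 4 were of the amino acid class, among them Slc43a3, which carries purine nucleobases. Of the 133, only Slc40a1 and Slc35a2 were lower at all 3 times. The share of all loci lower, or higher, at all 3 times was not determined. Slc40a1 encodes ferroportin, the exporter of cellular iron (chromosome 1, 45964915 to 45982439). It had 12.1, 13.1, 12.9 and 15.9 FPKM in si14-3-3ζ and 62.5, 32.05, 58.1 and 35.7 in siCon libraries at 0 h (−1.68 ± 0.30, adjusted p = 0.000533). At 48 h it had 0.775, 0.693, 1.11 and 0.878 in si14-3-3ζ and 8.99, 2.53, 6.80 and 2.59 in siCon libraries (−1.59 ± 0.30, adjusted p = 0.000191). Its siCon replicates 1 and 3 were again above 2 and 4 at each time. At 24 h both groups were low (0.782 ± 0.184 in si14-3-3ζ, 2.48 ± 1.41 in siCon cells) and overlapped. That difference (−0.88 ± 0.30, adjusted p = 0.0316) was lost without siCon replicate 1 (−0.68, adjusted p = 0.118) or 3 (−0.73, adjusted p = 0.107), and without si14-3-3ζ replicate 1, 3 or 4 (adjusted p 0.0532 to 0.075).

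Slc40a1 also had the largest fall of the 133 members in each comparison with 0 h. Relative to 0 h it was lower by 3.02 on the log2 scale in si14-3-3ζ against 3.83 in siCon cells at 24 h, and by 2.96 in si14-3-3ζ against 3.04 in siCon cells at 48 h. The other metal transporters moved in both directions. Slc48a1, which moves heme out of endosomes and lysosomes (chromosome 15, 97614786 to 97623123), had 117, 131, 115 and 136 FPKM in si14-3-3ζ and 192, 184, 198 and 189 in siCon libraries at 0 h (−0.61 ± 0.09, adjusted p = 7.74e-05). By 48 h it had fallen in both, to 50.7 ± 2.02 in si14-3-3ζ against 51.2 ± 8.98 in siCon cells, and the responses differed by 0.61 ± 0.13 (adjusted p = 0.0022). Hdac7 overlaps it on the opposite strand and stood at 43.2 ± 2.96 in si14-3-3ζ against 45.6 ± 6.75 in siCon cells at 0 h. Slc31a2, of the copper transporter family, fell less in si14-3-3ζ cells (−0.61 ± 0.13) than in siCon cells (−1.16 ± 0.13) at 48 h, and the difference of 0.54 ± 0.18 (adjusted p = 0.039) was lost without any 1 of 10 libraries (adjusted p 0.0511 to 0.0887).

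Slc39a14, a zinc and iron importer that inflammatory cytokines are known to induce in liver, rose in both kinds of cell. In si14-3-3ζ libraries it averaged 31.7 ± 3.80, 61.9 ± 7.72 and 105 ± 11.7 FPKM at 0, 24 and 48 h, and in siCon libraries 34.6 ± 3.08, 81.3 ± 4.01 and 112 ± 14.6. The 48 h rise was 1.70 ± 0.11 in si14-3-3ζ against 1.66 ± 0.11 in siCon cells, and the difference between them was 0.04 ± 0.15 (adjusted p = 0.878). Only at 24 h did the groups separate (−0.40 ± 0.11, adjusted p = 0.00769), with every si14-3-3ζ library (52.8, 69.6, 58.4 and 66.9) below every siCon library (78.2, 79.2, 87.1 and 80.7). Slc30a1, which exports zinc, rose as well (0.86 in si14-3-3ζ against 0.93 in siCon cells at 48 h), whereas Slc11a2, the proton-coupled iron importer, fell by 1.04 in si14-3-3ζ against 1.19 in siCon cells.

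After induction more members were lower than higher relative to 0 h, and time in culture is not separated from induction here. In si14-3-3ζ cells 25 were higher and 66 lower at 24 h than at 0 h, beside 28.3% and 31.9% of all loci, and 24 were higher and 50 lower at 48 h, beside 26.5% and 29.7%. In siCon cells 29 were higher and 60 lower at 24 h (30.8% and 33.4% of all loci), and 34 were higher and 61 lower at 48 h (33.9% and 35.7%). At 24 h the median member stood at −0.32 on the log2 scale in si14-3-3ζ against −0.26 in siCon cells (all loci −0.02 and −0.03), and at 48 h at −0.20 in si14-3-3ζ against −0.22 in siCon cells (all loci −0.00 and −0.02). The comparisons with 0 h share their 0 h libraries. Of the 133, 17 were called higher and 37 lower at both times in both kinds of cell. At 24 h no member was called in opposite directions, with 55 lower and 24 higher in both. The share of all loci with each of these joint calls was not determined, so the counts do not set the members apart.

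**Figure D4:**
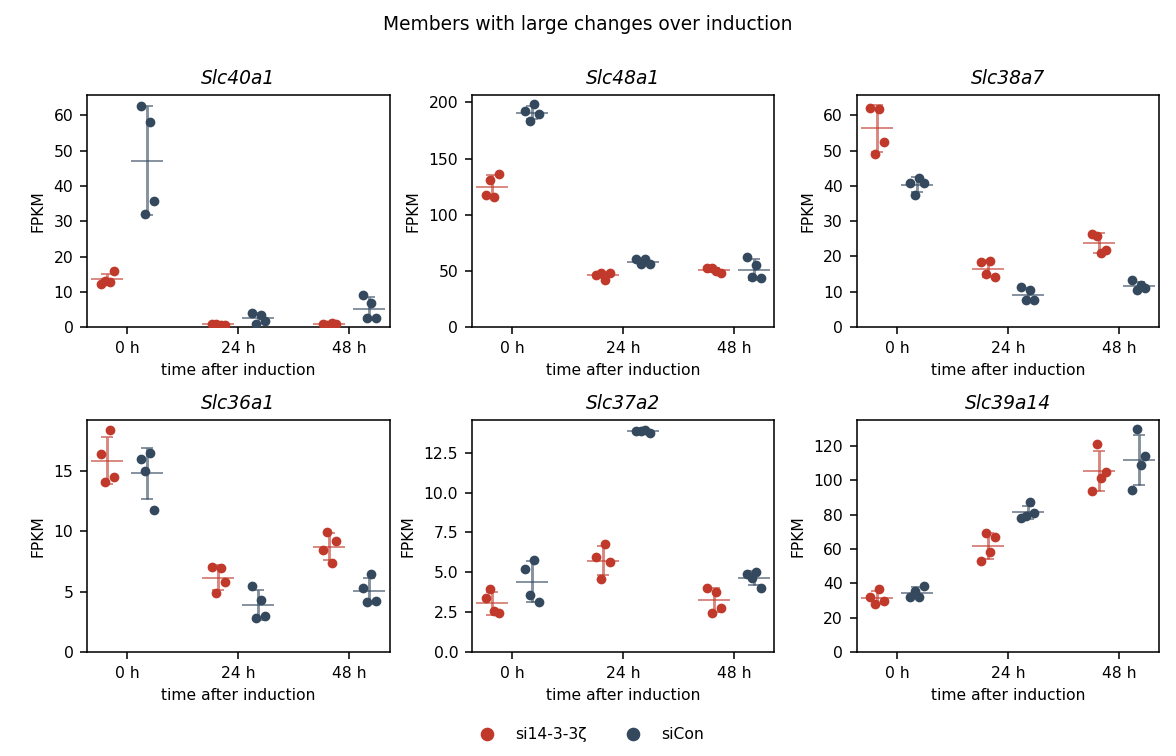
FPKM (linear axis from 0) of 6 members at 0, 24 and 48 h, si14-3-3ζ left of siCon at each time, with 1 point per library and bars for the mean and SD (n = 4). Slc40a1, Slc48a1, Slc38a7 and Slc36a1 fall after 0 h, Slc37a2 peaks at 24 h with 13.9 FPKM in siCon libraries, and Slc39a14 rises at each time.

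Carriers of inorganic ions fall into several classes. Of the 7 members of the sodium, potassium, calcium and chloride class, 6 were lower in si14-3-3ζ cells at each later time, beside 31.9% of all loci at 24 h and 29.7% at 48 h, and in siCon cells all 7 were lower at 24 h and 6 at 48 h, beside 33.4% and 35.7%, with none higher in either. The 9 exchangers of bicarbonate, protons and chloride moved both ways, with 1 higher and 4 lower at 24 h and 2 higher and 4 lower at 48 h in si14-3-3ζ cells, against 3 higher and 4 lower at 24 h and 3 higher and 3 lower at 48 h in siCon cells. Slc8a1, the plasma membrane sodium-calcium exchanger, had 2.09, 2.06, 2.12 and 2.10 FPKM at 48 h, against 5.53, 6.00, 9.03 and 5.69 at 0 h, in si14-3-3ζ libraries (−1.27 ± 0.28), and 1.40, 1.71, 1.57 and 1.43 at 48 h, against 9.24, 7.32, 9.08 and 7.11 at 0 h, in siCon libraries (−1.85 ± 0.28). Slc12a2 and Slc12a4, the inward sodium-potassium-chloride and the outward potassium-chloride cotransporter, fell in both and were higher in si14-3-3ζ cells at 48 h, by 0.71 ± 0.18 (adjusted p = 0.00231) and 0.55 ± 0.10 (adjusted p = 0.000188). Slc12a4 had 35.99, 32.9, 33.8 and 36.3 FPKM in si14-3-3ζ and 24.9, 23.0, 22.0 and 24.1 in siCon libraries. Among exchangers of bicarbonate, Slc4a3 had 9.53, 14.3, 12.6 and 15.3 FPKM in si14-3-3ζ and 5.10, 6.74, 3.51 and 5.13 in siCon libraries at 48 h (1.19 ± 0.21, adjusted p = 9.06e-05). Slc4a4, a sodium-bicarbonate cotransporter, was lower at 0 h, with 1.61 ± 0.188 in si14-3-3ζ against 3.74 ± 0.992 in siCon cells (−0.84 ± 0.17, adjusted p = 0.0016). Slc4a2, the most abundant of them, was not called with knockdown at any time (adjusted p 0.0831 to 0.887).

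Of the 4 members for fatty acids and acetyl-CoA, 1 was higher and 1 lower after induction in each comparison with 0 h. Slc27a1, an acyl-CoA synthetase and fatty acid transport protein of fat and muscle, fell in si14-3-3ζ cells to 6.21, 4.63, 6.58 and 4.37 FPKM at 24 h, against 22.8, 19.7, 25.6 and 22.3 at 0 h (−1.88 ± 0.12, adjusted p = 4.55e-12). In siCon cells it fell to 3.58, 4.11, 3.44 and 3.74, against 17.9, 19.3, 20.6 and 17.8 at 0 h (−2.08 ± 0.12, adjusted p = 7.18e-13). It was higher in si14-3-3ζ cells at 48 h, at 10.7 ± 1.07 against 6.59 ± 0.957 in siCon cells (0.62 ± 0.12, adjusted p = 0.000191). Slc27a4, its relative and the highest of the class, rose at 48 h by 0.34 ± 0.08 in si14-3-3ζ against 0.25 ± 0.08 in siCon cells. Slc33a1, which brings acetyl-CoA into the endoplasmic reticulum, was lower in si14-3-3ζ cells at 0 h (−0.49) and 48 h (−0.67). Of the carboxylate class, Slc16a1, the lactate and pyruvate carrier, was not called with knockdown (adjusted p 0.207 to 0.434). With the replicate block, fitted over all 24 libraries, its 24 h difference of −0.26 had a limma adjusted p of 0.0486. The lowest correlation of same-numbered libraries was 0.101 for knockdown at 24 h, but 0.084 at 0 h and 0.080 at 48 h. Slc16a13, of the monocarboxylate transporter family, had 4.13, 1.66, 1.80 and 3.14 FPKM in si14-3-3ζ and 4.17, 6.24, 5.46 and 5.31 in siCon libraries at 24 h (−0.82 ± 0.26, adjusted p = 0.0228), a call lost without si14-3-3ζ replicate 2 or 3 or siCon replicate 2 or 3 (adjusted p 0.0502 to 0.0794). Slc16a4, of the same family, fell in both kinds of cell by more than 1 on the log2 scale at both times.

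Among sugars and sugar phosphates, Slc37a2, which exchanges glucose 6-phosphate for phosphate in the endoplasmic reticulum, had the clearest 24 h pattern. It had 5.93, 4.58, 6.77 and 5.64 FPKM in si14-3-3ζ and 13.9, 13.8, 14.0 and 13.8 in siCon libraries at 24 h (−1.15 ± 0.16, adjusted p = 1.18e-05). At 48 h it was back at 3.25 ± 0.760 in si14-3-3ζ against 4.65 ± 0.439 in siCon cells (−0.42 ± 0.16, adjusted p = 0.0303), a call lost without any 1 of 4 libraries of 48 h (adjusted p 0.0668 to 0.111): replicates 2 and 4 of si14-3-3ζ, and 1 and 3 of siCon. The 24 h response difference of −0.75 ± 0.22 was not called (adjusted p = 0.0933). Of the 7 carriers of nucleotide sugars and sugar phosphates, 5 were lower with knockdown at 24 h and none higher, beside 14% and 14.5% of all loci, among them Slc35a1 and Slc35a2, which carry CMP-sialic acid and UDP-galactose into the Golgi (−0.34 and −0.49). Slc2a10, a facilitative glucose transporter, was higher in si14-3-3ζ cells at 48 h (0.71). Slc45a4, of a family of proton-coupled sugar transporters, was higher at 24 h (0.34 ± 0.13, adjusted p = 0.0422) and 48 h (0.33 ± 0.13, adjusted p = 0.0338), and each call was lost without any 1 of 5 libraries of its time (adjusted p 0.0887 to 0.166 at 24 h and 0.0505 to 0.121 at 48 h). Slc5a3, the sodium-coupled inositol transporter, was the most abundant sugar-class locus, at 262 FPKM in si14-3-3ζ against 416 in siCon cells at 48 h (−0.67). Its row also names Mrps6, so the value belongs to both genes.

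Nucleoside, phosphate, sulfate and choline transporters were fewer. Slc29a1 had 152, 190, 168 and 217 FPKM in si14-3-3ζ and 111, 146, 111 and 149 in siCon libraries at 48 h (0.49 ± 0.17, adjusted p = 0.0227). Replicates 2 and 4 exceeded 1 and 3 in all 6 groups, the opposite order to that of Slc25a10 in siCon libraries, and the 48 h call was lost without si14-3-3ζ replicate 2 or 4 or siCon replicate 1 or 3 (adjusted p 0.0516 to 0.079). Its response at 48 h differed by 0.83 ± 0.24 (adjusted p = 0.0199). At 24 h the knockdown difference was 0.19 ± 0.17 (adjusted p = 0.422), called with the replicate block (adjusted p = 0.0189). Slc20a1, a sodium-phosphate cotransporter, fell in both, by 1.39 in si14-3-3ζ against 1.12 in siCon cells at 48 h, and was not called with knockdown. Slc26a11, a sulfate transporter, was higher in si14-3-3ζ cells at 24 h (2.83 ± 0.697 against 1.23 ± 0.276 in siCon cells; 0.77 ± 0.20, adjusted p = 0.00578). Slc44a1, a choline transporter, averaged between 29.2 and 36.3 FPKM in the 6 groups and was not called with knockdown at any time. Slc5a7, the high-affinity choline transporter, fell to 0.214 ± 0.0688 at 48 h, against 2.42 ± 0.574 at 0 h, in si14-3-3ζ cells, and to 0.556 ± 0.256, against 3.17 ± 1.42, in siCon cells. Slc10a6, a carrier of sulfated steroids, rose at 48 h by 1.05 ± 0.23 in si14-3-3ζ against 0.68 ± 0.23 in siCon cells, where replicates 2 and 4 (19.8 and 16.5 FPKM) stood above 1 and 3 (7.96 and 7.86). The siCon rise was lost without replicate 2 or 4 of 48 h (adjusted p = 0.0762 and 0.0572). Slc22a4, the ergothioneine transporter, was low throughout, with no group mean above 1.57 FPKM.

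The responses of the 2 kinds of cell over 48 h differed for 29 members, 17 higher (12.8%) and 12 lower (9.02%) in si14-3-3ζ cells, beside 8.69% and 9.24% of all loci, so that the share lower was that of the background. Of the 12 lower ones, 7 were mitochondrial carriers, and the others were Slc5a6, Slc1a3, Slc19a1, Slc35a4 and Slc5a3. Of these 12, 10 had risen in siCon cells. Of the 17 with a higher response, 15 had fallen in siCon cells at 48 h, among them Slc7a2, Slc29a1 and 5 metal transporters, Slc48a1 and Slc31a2 included. The response difference subtracts the change in siCon cells, so both overlaps are partly built in. Their shares over all loci were not determined. Libraries numbered 1 and 3 alone gave 11 higher and 12 lower, and those numbered 2 and 4 gave 11 and 9. Without siCon replicate 3 at 48 h 7 were lower. The counts of response differences and of knockdown at 48 h share their 48 h libraries.

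**Figure D5:**
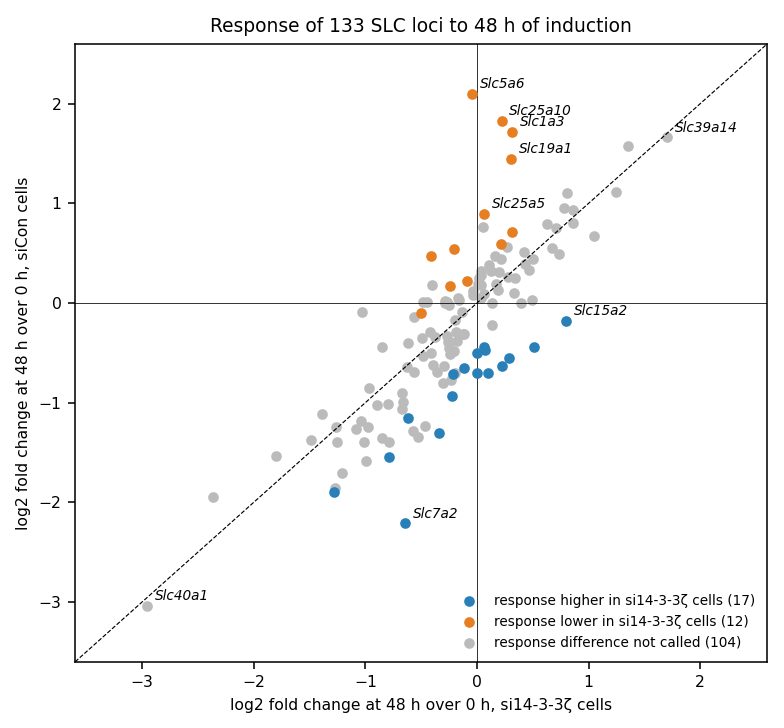
Log2 fold change at 48 h over 0 h in si14-3-3ζ cells (x axis) and in siCon cells (y axis) for the 133 members, with 1 point per locus, coloured where the response difference has an adjusted p under 0.05 (17 higher, 12 lower in si14-3-3ζ cells), and a dashed line where both are equal. Slc5a6, Slc25a10, Slc1a3 and Slc19a1 lie near 0 on the x axis and above 1 on the y axis, and Slc40a1 and Slc39a14 lie near the dashed line.

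Among the 133 loci, 3 carry the symbol pattern and encode no transporter, namely Slc9a3r1 and Slc9a3r2, scaffold proteins that bind sodium-proton exchangers, and Slc7a6os, a gene named for its position beside Slc7a6. Slc9a3r1 was higher with knockdown at 24 h (0.69) and 48 h (0.91), at 27.7 FPKM in si14-3-3ζ against 14.3 in siCon cells at 48 h. A further gene symbol shares the row of 10 members, as for Slc5a3, and their values cannot be assigned to a single gene. Of 132 members with a position, 17 overlap a protein-coding gene of the opposite strand, Slc4a2, Slc8a1, Slc11a2, Slc30a1 and Slc25a11 among those named here, and 3 overlap one of the same strand, so that reads from the shared stretch cannot be told apart. In none of the 9 comparisons were 6 members called, namely Slc22a17, Slc22a23, Slc25a14, Slc25a38, Slc25a46 and Slc38a10. The share of all loci without a call was not determined, so this count does not set the members apart. Of the 47 other transporter genes listed for context, whose symbols follow other patterns, 17 were in the table. At 48 h knockdown left 6 of these higher and 4 lower, beside 23.3% and 22.8% of all loci. From 0 h to 48 h, 2 were called up and 7 down in si14-3-3ζ cells (26.5% and 29.7% of all loci), against 5 up and 8 down in siCon cells (33.9% and 35.7%). Among them Ctns, the lysosomal cystine exporter, was at 16.6 ± 1.96 FPKM in si14-3-3ζ against 9.35 ± 0.443 in siCon cells at 48 h, and Brp44, a subunit of the mitochondrial pyruvate carrier, at 104 ± 11.6 in si14-3-3ζ against 216 ± 57.2 in siCon cells. Both were named after their values were seen.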

How the data were processed

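RNA-Seq of 24 libraries of 3T3-L1 cells was used (6 groups of 4). The authors aligned reads with TopHat2 2.0.11 and estimated expression with Cufflinks 2.2.0 on the Ensembl NCBIM37 annotation, and deposited FPKM values per locus, with no counts, so that depth and counting error are unknown. The file header names no unit, and FPKM is taken from the study's methods. Loci with at least 1 FPKM in 4 or more libraries were kept (9251 of 9262), and log2(FPKM + 1) was fitted with 6 group means in limma 3.58.1 (R 4.3.3, empirical Bayes with trend), with Benjamini-Hochberg adjustment over all loci kept. This script was tested on simulated data. Groups came from the labels. Substrate classes, marker lists and the members themselves were chosen with earlier results of these data known. Genes were named by rule: the 5 largest rises and 5 largest falls among called members without overlapping libraries in the knockdown comparisons and in siCon cells over time, the highest member of each class of 3 or more, and a short list, 45 in all, of which 44 are reported. Results of 2 members are not reported here by name. Other members are named from the counts they belong to, after their values were seen. Slc2a4, Slc7a10, Slc16a7 and Slc36a2 of that list were not analysed here. Same-numbered libraries shared deviations from their group means in every pair (r over 0.1) for knockdown at 24 h (lowest 0.101), both siCon comparisons (lowest 0.198 and 0.179) and si14-3-3ζ at 24 h against 0 h (lowest 0.135), so that the replicate block is given beside a result there where it changes a call. The block was fitted over all 24 libraries, including those of pairs with a correlation under 0.1. Overlaps of genes were read from the GENCODE M1 annotation. Promoters came from RefSeq (GRCm38.p6), a later build than that of the files, and no coordinate was converted.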

Additional observations from a re-analysis of the deposited data

Results flagged for a closer look

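Of 264 sets of 4 libraries checked (44 genes in 6 groups), 10 held a library far from the other 3, where chance gives about 1 in 20. In si14-3-3ζ libraries at 0 h these were Slc15a2 in replicate 1 (6.886 FPKM, the others 3.687 to 3.838) and Slc8a1 in replicate 3 (9.033, the others 5.53 to 5.999). In si14-3-3ζ libraries at 24 h they were Slc12a2 in replicate 1 (14.03, the others 10.13 to 10.5), Slc4a3 in replicate 2 (6.003, the others 8.221 to 8.338), and Slc1a3 in replicate 3 (3.659, the others 1.456 to 1.829). In si14-3-3ζ libraries at 48 h they were Slc25a20 in replicate 2 (9.353, the others 6.345 to 6.42) and Slc15a2 in replicate 3 (12.88, the others 7.158 to 7.427). In siCon libraries at 24 h all 3 were in replicate 3: Slc22a4 (1.708, the others 0.8222 to 0.8877), Slc44a1 (28.05, the others 31.52 to 32.23) and Slc8a1 (8.022, the others 1.532 to 2.341).

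The change from 0 h differed between si14-3-3ζ and siCon cells, by limma's test of the difference, for the following named genes. At 24 h the log2 difference was −0.77 for Slc38a4 and 0.75 for Slc7a2. At 48 h it was below 0 for Slc5a6 (−2.15), Slc25a10 (−1.60), Slc1a3 (−1.40), Slc19a1 (−1.14), Slc25a5 (−0.83), Slc25a1 (−0.40) and Slc35a4 (−0.40). It was above 0 for Slc7a2 (1.57), Slc15a2 (0.98), Slc22a4 (0.86), Slc29a1 (0.83), Slc48a1 (0.61) and Slc31a2 (0.54). The Slc35a4 call was lost without any 1 of 12 libraries (adjusted p 0.0506 to 0.0951) and that of Slc22a4 without any 1 of 6 (adjusted p 0.0501 to 0.0671).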

How the results depend on the processing

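The counts of members called kept within 1.5 times under most alternatives. With the replicate block the counts at 0 h of knockdown were 13 higher and 25 lower (6 and 15 without it), the lower responses at 48 h were 19 (12 without it) and those at 24 h were 2 (1 without it). At those comparisons the pairing of numbers was not established or not checked. The block cost no named gene its call and added 22 calls, over 396 pairs of gene and comparison of which 202 were called without it. For the 24 h response difference (3 higher, 1 lower), a pseudocount of 0.1 left 1 higher and 0 lower, and quantile normalization left 1 higher. Libraries numbered 1 and 3 alone, and those numbered 2 and 4 alone, chosen after seeing the data, each gave 11 higher responses at 48 h (17 with all). Leaving out each library in turn gave 4 to 9 higher and 11 to 16 lower members for knockdown at 0 h, 10 to 14 and 14 to 28 at 24 h, and 26 to 34 and 26 to 33 at 48 h. Against 0 h it gave 22 to 27 higher and 60 to 67 lower for si14-3-3ζ at 24 h, and 18 to 25 and 45 to 51 at 48 h. For siCon it gave 23 to 29 and 55 to 62 at 24 h, and 33 to 37 and 60 to 64 at 48 h. For the response difference it gave 0 to 3 higher and 0 to 2 lower at 24 h, and 12 to 19 and 7 to 15 at 48 h. Of these 202 calls, 42 were lost under some alternative and none changed direction. The cause was not tested. Without read counts, the counting error of weakly expressed members is unknown.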

Other observations

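Members that sit in lysosomes or endosomes were grouped after their values were seen, so the group is a description. They were 9, carrying amino acids, sialic acid, nucleosides, heme and metal ions. In si14-3-3ζ cells 7 of the 9 were lower at 24 h than at 0 h and 6 at 48 h, where Slc38a9, part of the lysosomal amino acid sensing machinery, was higher, with median log2 changes of −1.04 and −0.79, beside 31.9% and 29.7% of all loci lower. In siCon cells 8 were lower at 24 h and 8 at 48 h, with medians of −1.04 and −1.26, beside 33.4% and 35.7% of all loci. At 48 h 4 of them (Slc17a5, Slc29a3, Slc36a1 and Slc38a7) were higher in si14-3-3ζ than in siCon cells, beside 23.3% of all loci.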
